A study of Mus musculus with 10 samples.

Results

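The genes described here are 10 transcription factors of the neural tube and hindbrain: Pax6, Zic1, Meis1, Meis2, Nr2f1, Nr2f2, Sp8, Zbtb16, Otx2 and Pou3f1. They were taken by name, with every probe set that carries that gene symbol alone in the platform annotation, which gave 28 of 34958 named probe sets, and 10 of 18194 genes. All 10 genes were measured and no filter on low values was applied. The genes were chosen from results of these same arrays, among them the log2 differences between siSocs3 and siNonTarget. That comparison is therefore given as a description, with its standard error and without a p-value.

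The RNA came from NG4, a line of mouse embryonic stem cells. Each group was transfected with siRNA at plating, differentiated with retinoic acid and collected at 48 h, with 2 arrays per group. The groups received siNonTarget, an siRNA without a target, or siRNA named for Sox17, Fbxw7, Socs3 or Rnf31 (siSox17, siFbxw7, siSocs3 and siRnf31), and all 5 groups shared the retinoic acid. No cells without retinoic acid are among these arrays. The labels do not say whether replicates were separate cultures, and the spread that the p-values measure may thus be technical. These are bulk samples, in which fewer cells of a type and less RNA per cell cannot be told apart.

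Retinoic acid is a signal that turns embryonic stem cells toward neural fates and gives the neural tube its posterior, hindbrain and spinal cord, identity. It acts through nuclear receptors and is known to induce Meis and Nr2f genes, while it represses Otx2, a factor of the forebrain and midbrain. Pax6 and Zic1 mark neural progenitors, and Pou3f1 is a POU factor of the late epiblast and early neural plate. Of 13 naive pluripotency genes of embryonic stem cells, Nanog and Zfp42 were the brightest on the control arrays, with mean log2 intensities of 11.25 and 10.72. The lowest was Prdm14 at 6.54. The neural progenitor gene Sox1 was at 8.02 on the control arrays, in a list that ran from 3.53 (Nr2e1) to 11.50 (Sox2). Transcripts of Nanog and of Sox1 were thus both in the RNA.

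Values are log2 intensities of the probe set of a gene with the highest mean, and differences are between group means with the standard error (SE) of one limma model over 18194 genes. A gene was called at an adjusted p under 0.05 (Benjamini-Hochberg over all genes). Array medians lay between 46.39 and 47.95 intensity units. Actin control probe sets differed between 3' and 5' ends by 0.21 to 0.29 (log2) on 8 arrays. They differed by 0.50 on siNonTarget replicate 1 and by 0.60 on siFbxw7 replicate 1. Such a difference is used as a sign of RNA integrity, for which no direct measure was at hand. The targeted transcripts did not check the labels: the own-group differences were -0.25 for Fbxw7, -0.40 for Rnf31, 0.03 for Sox17 and 0.44 for Socs3, and none was called. Directions below therefore rest on the labels.

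The sequence before the start site is shown for Pax6, for the paralogues Nr2f1 and Nr2f2, and for Otx2, which was dim on every array. The group means of Pax6, Nr2f1 and Nr2f2 had the same order. RefSeq (GRCm38.p6) gave start sites for 8 of the 10 genes, 15 in all, and for 5 genes a site was at the outer end of the gene. Each line gives the 250 bases before such a site, 5′ to 3′ on the gene's strand, in lower case, with motif matches in capitals.
Pax6, chr2:105668646-105668895, plus strand: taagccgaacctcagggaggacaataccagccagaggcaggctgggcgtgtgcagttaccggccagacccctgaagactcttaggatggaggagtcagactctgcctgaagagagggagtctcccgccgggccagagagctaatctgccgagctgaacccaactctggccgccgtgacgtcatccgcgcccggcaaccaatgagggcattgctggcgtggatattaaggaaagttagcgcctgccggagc
Nr2f1, chr13:78198874-78199123, minus strand: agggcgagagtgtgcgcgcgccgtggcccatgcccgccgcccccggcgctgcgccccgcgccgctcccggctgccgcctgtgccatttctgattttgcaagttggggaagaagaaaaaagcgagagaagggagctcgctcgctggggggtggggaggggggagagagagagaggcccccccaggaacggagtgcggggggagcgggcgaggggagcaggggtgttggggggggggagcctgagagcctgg
Nr2f2, chr7:70366747-70366996, minus strand: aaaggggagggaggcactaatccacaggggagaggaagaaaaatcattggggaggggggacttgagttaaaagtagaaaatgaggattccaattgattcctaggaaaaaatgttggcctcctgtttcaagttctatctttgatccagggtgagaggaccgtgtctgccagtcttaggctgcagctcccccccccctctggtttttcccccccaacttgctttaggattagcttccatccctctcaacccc
Otx2, chr14:48667645-48667894, minus strand: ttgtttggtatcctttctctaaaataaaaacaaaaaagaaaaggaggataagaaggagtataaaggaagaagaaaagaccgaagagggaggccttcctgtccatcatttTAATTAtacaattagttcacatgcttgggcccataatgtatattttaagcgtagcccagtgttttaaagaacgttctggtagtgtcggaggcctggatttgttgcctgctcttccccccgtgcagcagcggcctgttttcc

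The windows were searched on both strands for the nuclear receptor core AGGTCA, the MEIS motif TGACAG, the POU octamer ATGCAAAT, the homeodomain motif TAATTA, and the nuclear receptor direct repeats DR1, DR2 and DR5, which contain variants of the core. The single match in these 4 windows was TAATTA (in capitals) in the Otx2 window, 141 to 136 bases before the start, and because TAATTA is its own reverse complement it matches on both strands. Of 32851 promoter windows of this length, 14.0% hold AGGTCA, 15.9% TGACAG, 1.60% ATGCAAAT and 4.84% TAATTA, while DR1, DR2 and DR5 occur in 0.164%, 0.174% and 0.088%. The Nr2f1 window was 72.0% G and C, the Pax6 window 60.8% and the Otx2 window 42.0%. At the other start sites, TGACAG was found before a second Pax6 start and before an Sp8 start, AGGTCA before another Sp8 start, and TAATTA before an Sp8 and a further Otx2 start. No window of Zic1, Meis1, Meis2, Nr2f1 or Nr2f2 held any of these letters, which says nothing about binding elsewhere.

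In most of the 10 genes, the siSocs3 arrays were the low ones. In 6 genes (Pax6, Zic1, Meis1, Meis2, Sp8 and Zbtb16) both siSocs3 arrays were the lowest of all 10. In Nr2f1, Nr2f2, Otx2 and Pou3f1 they were not both the lowest. The share of all genes with both siSocs3 arrays lowest was not computed. In 8 genes both lay below both control arrays. Among all genes, 26.7% had both siSocs3 arrays below both control arrays and 30.6% both above, as Otx2 did. The model called 7 of the 10 lower and 0 higher, where 5.66% of all genes were called lower. The median difference of the 10 genes was -1.92, and that of all genes 0.03. Because this contrast helped choose the genes, nothing is read from the count of called genes, the tallies of low arrays or these medians. With siSocs3 replicate 1 left out the count was 0, and with siNonTarget replicate 1 or 2 left out it was 2 or 4. The sign of the 9 estimates below 0 did not change in any of the alternatives run.

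**Figure D1:**
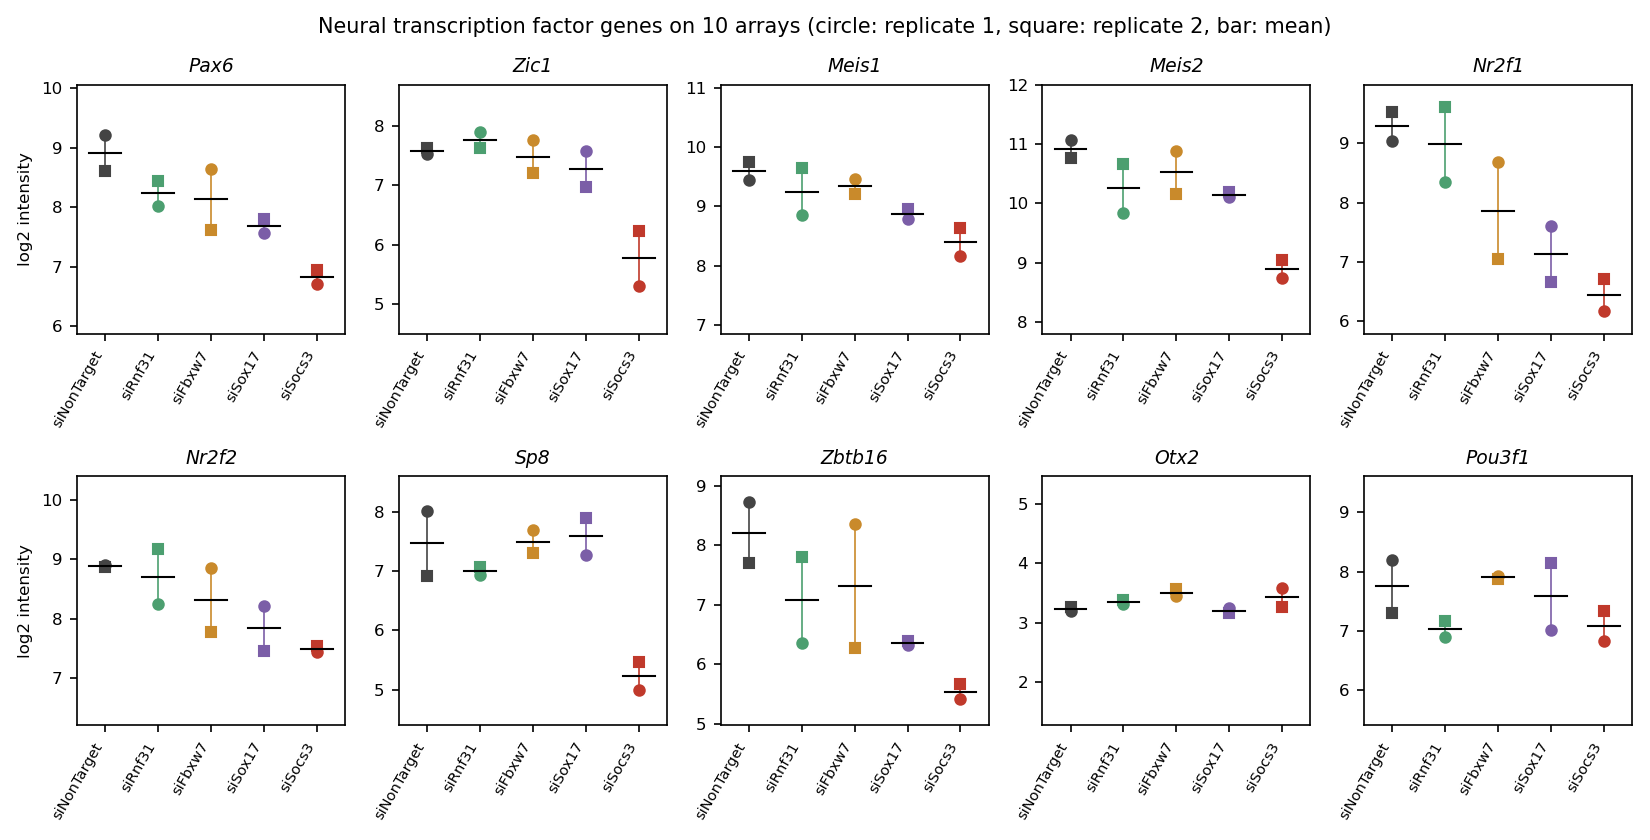
Log2 intensity of the brightest probe set of each of the 10 genes (vertical axis, same span of 4.2 log2 units in each panel) in the 5 groups, with circles for replicate 1, squares for replicate 2 and bars for group means. The siSocs3 points are the lowest in Pax6, Zic1, Meis1, Meis2, Sp8 and Zbtb16, whereas Otx2 stays between 3.16 and 3.59.

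Pax6 encodes a paired-box homeodomain factor of neural progenitors in the eye, forebrain, hindbrain and spinal cord. It read 9.22 and 8.61 on the siNonTarget arrays, 8.02 and 8.45 in siRnf31, 8.64 and 7.62 in siFbxw7, 7.57 and 7.79 in siSox17, and 6.71 and 6.94 in siSocs3. The siSocs3, siSox17 and siRnf31 arrays all lay below both controls, the 2 siSocs3 arrays lowest, while the siFbxw7 arrays straddled the lower control. The difference from control was -2.09 ± 0.32 in siSocs3, or 4.25-fold lower (SE, n = 2 arrays per group). In siSox17 it was -1.23 ± 0.32 (limma adjusted p = 0.143), in siFbxw7 -0.79 ± 0.32 (0.752) and in siRnf31 -0.68 ± 0.32 (0.778), so none of these passed over all genes.

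Zic1 encodes a zinc finger factor of the dorsal neural tube and cerebellum, and its profile was different. The values were 7.52 and 7.63 in siNonTarget, 7.89 and 7.63 in siRnf31, 7.76 and 7.20 in siFbxw7, 7.58 and 6.98 in siSox17, and 5.30 and 6.23 in siSocs3. Only the siSocs3 arrays stood apart, and they differed from each other by 0.92. The siSocs3 difference was -1.81 ± 0.31, and it was -1.35 without siSocs3 replicate 1 and -2.27 without siSocs3 replicate 2. In siSox17, siFbxw7 and siRnf31 the differences were -0.30, -0.09 and 0.19 (each ± 0.31), with adjusted p of 0.668, 0.965 and 0.904.

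Sp8, a zinc finger factor of forebrain patterning and of limb buds, followed the same shape. Its values were 8.01 and 6.93 in siNonTarget, 6.93 and 7.08 in siRnf31, 7.69 and 7.30 in siFbxw7, 7.28 and 7.89 in siSox17, and 5.00 and 5.46 in siSocs3. The other 8 arrays overlapped, and the highest siSocs3 array was 1.46 below the lowest of them. The siSocs3 difference was -2.24 ± 0.34 (4.71-fold lower). The control arrays differed by 1.08, and without siNonTarget replicate 1, whose actin difference was 0.50, the estimate was -1.69. In siSox17 the difference was 0.12 ± 0.34 (95% interval -0.65 to 0.89, limma adjusted p = 0.900), in siFbxw7 0.03 ± 0.34 (0.991) and in siRnf31 -0.46 ± 0.34 (0.795).

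Meis1 and Meis2 encode TALE homeodomain proteins that bind DNA together with PBX and HOX proteins and are known retinoic acid targets. Meis2 read 11.07 and 10.76 in siNonTarget, 9.84 and 10.67 in siRnf31, 10.88 and 10.16 in siFbxw7, 10.10 and 10.19 in siSox17, and 8.73 and 9.05 in siSocs3. Only siSocs3 was clear of every other array, by 0.79 from the lowest of them. The difference was -2.02 ± 0.29 in siSocs3 (4.06-fold lower). It was -0.77 ± 0.29 in siSox17 (limma adjusted p = 0.228), -0.39 ± 0.29 in siFbxw7 (0.809) and -0.66 ± 0.29 in siRnf31 (0.778).

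For Meis1 the spread between groups was narrower. The values were 9.44 and 9.74 in siNonTarget, 8.85 and 9.65 in siRnf31, 9.47 and 9.22 in siFbxw7, 8.78 and 8.95 in siSox17, and 8.16 and 8.63 in siSocs3. Both siSox17 arrays were below both controls and above both siSocs3 arrays, whereas siRnf31 and siFbxw7 overlapped the controls. The siSocs3 difference was -1.19 ± 0.26, against -0.73 ± 0.26 in siSox17 (limma adjusted p = 0.204), -0.25 ± 0.26 in siFbxw7 (0.865) and -0.34 ± 0.26 in siRnf31 (0.797).

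Nr2f1 and Nr2f2 encode COUP-TFI and COUP-TFII, orphan nuclear receptors that compete with retinoid receptors for DNA. Nr2f1 had the widest range of the 10 genes. It read 9.04 and 9.54 in siNonTarget, 8.35 and 9.61 in siRnf31, 8.69 and 7.05 in siFbxw7, 7.61 and 6.66 in siSox17, and 6.17 and 6.71 in siSocs3. The group means fell in the order siNonTarget, siRnf31, siFbxw7, siSox17 and siSocs3, but each neighbouring pair in that order overlapped. The siSocs3 difference was -2.85 ± 0.57 (7.19-fold lower) and the siSox17 difference -2.15 ± 0.57 (4.45-fold lower, limma adjusted p = 0.148). The siSox17 difference reached an adjusted p of 0.0495 when only siSox17 and siNonTarget were fitted. In siFbxw7 it was -1.42 ± 0.57 (adjusted p = 0.752), with the siFbxw7 arrays 1.63 apart, and in siRnf31 -0.30 ± 0.57 (0.918).

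Nr2f2 kept that order of groups. It was 8.89 and 8.88 in siNonTarget, 8.24 and 9.17 in siRnf31, 8.85 and 7.78 in siFbxw7, 8.22 and 7.46 in siSox17, and 7.44 and 7.53 in siSocs3. Here siSox17 replicate 2 was level with the siSocs3 arrays, and siFbxw7 replicate 1 with the controls. The differences were -1.40 ± 0.39 in siSocs3, -1.05 ± 0.39 in siSox17 (limma adjusted p = 0.221), -0.57 ± 0.39 in siFbxw7 (0.794) and -0.18 ± 0.39 in siRnf31 (0.927). Nr2f2 was not among the 7 genes called in siSocs3.

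Zbtb16 encodes PLZF, a zinc finger repressor present in hindbrain segments and neural progenitors. Its values were 8.74 and 7.70 in siNonTarget, 6.35 and 7.80 in siRnf31, 8.36 and 6.28 in siFbxw7, 6.32 and 6.39 in siSox17, and 5.40 and 5.66 in siSocs3. Replicates lay far apart in 3 groups: by 1.04 in siNonTarget, 1.45 in siRnf31 and 2.09 in siFbxw7, against 0.07 in siSox17 and 0.26 in siSocs3. The siSocs3 difference was -2.68 ± 0.66, and -2.17 without siNonTarget replicate 1. The siSox17 difference was -1.86 ± 0.66 (limma adjusted p = 0.203), the siFbxw7 difference -0.90 ± 0.66 (0.807) and the siRnf31 difference -1.14 ± 0.66 (0.778).

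Otx2, a homeodomain factor of the forebrain and midbrain, was dim. Its 10 values lay between 3.16 (siSox17 replicate 2) and 3.59 (siSocs3 replicate 1), with 3.20 and 3.26 on the control arrays. Those values are below the lower quartile of each array (3.96 to 4.05), where RMA compresses differences, so no direction is drawn from them. The siSocs3 difference was 0.19 ± 0.12 and the siFbxw7 difference 0.27 ± 0.12 (limma adjusted p = 0.752).

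Pou3f1 (Oct6) did not follow the others either. It was 8.20 and 7.30 in siNonTarget, 6.89 and 7.17 in siRnf31, 7.93 and 7.88 in siFbxw7, 7.01 and 8.15 in siSox17, and 6.82 and 7.33 in siSocs3. The siSocs3 arrays overlapped the lower control and all 4 siSocs3 and siRnf31 arrays were at a similar level. The differences were -0.67 ± 0.38 in siSocs3, -0.72 ± 0.38 in siRnf31 (limma adjusted p = 0.778), -0.17 ± 0.38 in siSox17 (0.863) and 0.16 ± 0.38 in siFbxw7 (0.953).

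**Figure D2:**
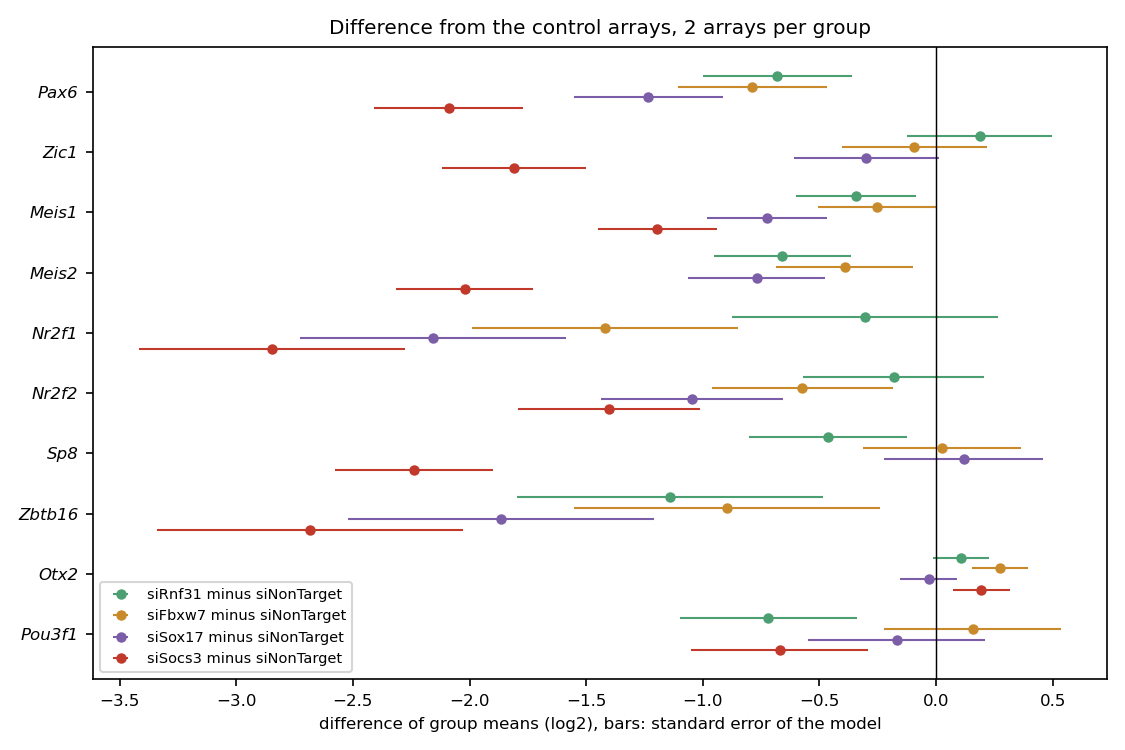
Difference from the siNonTarget mean (horizontal axis, log2) for each gene in the 4 targeted groups, with bars for the standard error of the limma model and 2 arrays per group. Nr2f1 reaches -2.85 in siSocs3 and -2.15 in siSox17, whereas Zic1 and Sp8 sit at -1.81 and -2.24 in siSocs3 and at -0.30 and 0.12 in siSox17.

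Of the 10 genes, 0 were called in siSox17, siFbxw7 or siRnf31 against siNonTarget (limma), and over all genes the called shares were 0.0055%, 0% and 0%. At an unadjusted p under 0.05 there were 6 of 10 in siSox17 (Pax6, Meis1, Meis2, Nr2f1, Nr2f2 and Zbtb16, all lower), against 17.3% of all genes. There were 3 in siFbxw7 (Pax6, Nr2f1 and Otx2) against 6.45% of all genes, and 0 in siRnf31 against 5.87%. The same 6 genes had both siSox17 arrays below both controls, as 24.9% of all genes did, and none had both above, where 23.3% of all genes did. In siFbxw7 both arrays were below both controls for Nr2f1 and Nr2f2 (16.1% of all genes) and above for Otx2 (16.9%). In siRnf31 both were below for Pax6, Meis2 and Pou3f1 (18.6%) and above for Zic1 and Otx2 (16.6%). The median difference over the 10 genes was -0.75 in siSox17, -0.32 in siFbxw7 and -0.40 in siRnf31, where the medians of all genes were -0.0026, 0.00063 and -0.0035. These 3 comparisons share their control arrays with the siSocs3 comparison, which was among the results from which the genes were chosen. Values below the controls can follow from that choice. Whether these 3 comparisons also helped choose the genes is not known, and nothing is read from these counts, shares and medians. Without either siFbxw7 array, which enters only through the spread, Pax6 was called in siSox17 (adjusted p = 0.0488) among 234 genes in all. With only siSox17 and siNonTarget fitted, Nr2f1 was called among 254 genes.

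The siSox17, siFbxw7 and siRnf31 arrays were also compared with each other. The differences then use neither the control nor the siSocs3 arrays, which enter only through the spread of the model. Whether results of these comparisons also helped choose the genes is not known, so nothing is read from the counts. In each of these 3 comparisons 0 of the 10 genes and 0% of all genes were called by limma, with 1 of the 10 at an unadjusted p under 0.05 each time, against 5.59% of all genes in siSox17 against siFbxw7, 7.68% in siSox17 against siRnf31 and 5.19% in siFbxw7 against siRnf31. In siSox17 against siRnf31 that gene was Nr2f1 (-1.85 ± 0.57, adjusted p = 0.563), with both siSox17 arrays below both siRnf31 arrays. In siSox17 against siFbxw7 it was Otx2 (-0.31 ± 0.12, adjusted p = 0.855), which is counted here and in the tallies of arrays but is too dim for a direction to be drawn. In siFbxw7 against siRnf31 it was Pou3f1 (0.88 ± 0.38, adjusted p = 0.922). Both siSox17 arrays were below both siFbxw7 arrays in 2 genes, Meis1 and Otx2 (19% of all genes), and above in 0 (16.7%). They were below both siRnf31 arrays in 5 genes, Pax6, Zic1, Nr2f1, Nr2f2 and Otx2 (21%), and above in 1, Sp8 (19.6%). Both siFbxw7 arrays were above both siRnf31 arrays in 3 genes, Sp8, Otx2 and Pou3f1 (17.6%), and below in 0 (14%).

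In 3 groups the same replicate was the higher one in nearly every gene. In siFbxw7, replicate 1 was above replicate 2 in 9 of 10 genes, by 1.63 in Nr2f1, 2.09 in Zbtb16 and 1.02 in Pax6. In siRnf31, replicate 1 was below replicate 2 in 9 of 10, by 1.26 in Nr2f1 and 1.45 in Zbtb16. The siFbxw7 replicate with the higher values was the array with the actin difference of 0.60, and the 2 siRnf31 arrays had actin differences of 0.28 and 0.25. In siSocs3, replicate 1 was the lower array in 9 of 10 genes. The other groups were mixed: siNonTarget replicate 1 was above replicate 2 in 6 of 10 genes, and siSox17 replicate 1 below replicate 2 in 6 of 10. The share of all genes with the same order of replicates was not computed, so these counts are not read as a trait of the 10 genes. The part of RNA integrity in these gaps was not tested.

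Separate probe sets of a gene were set beside the brightest. All 28 were fitted with 34958 named probe sets, of which 6.90% were called in siSocs3 against siNonTarget, and 15 of the 28 were called. At least 1 probe set was called in 8 genes, and no share of all genes is given beside that count. Because this contrast helped choose the genes, and probe sets of the same gene are not independent, nothing is read from these counts. The 4 Meis2 probe sets lay close together, at -2.02, -2.002, -1.84 and -2.18, the last with an SE of 0.84 and not called. Nr2f2 had 6: the brightest at -1.40, others at -1.48, -1.64, -1.37 and -0.93, and the last at 0.04. Among them the sets at -1.48, -1.64 and -1.37 were called. The other Zic1 probe set read -1.63, and that of Pou3f1 -0.21.

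Most probe sets that differed from their gene's brightest were dim ones. Intensity alone did not sort them. The second Zic1 probe set, at 5.32 on the control arrays, gave -1.63, and a Pax6 probe set at 5.82 gave -0.22. The second Pou3f1 probe set, at 6.65, gave -0.21 ± 0.24 where the brightest gave -0.67 ± 0.38, and their difference was not tested. For Pax6 the second brightest, at 6.59 on the control arrays, gave -1.54, while the others, at 4.45 to 5.82, gave -0.22, -0.24 and -0.32. For Zbtb16 the probe set at 6.77 gave -2.78 and that at 5.13 gave -0.13. For Meis1 the probe set at 7.15 gave -1.18 and that at 3.77 gave 0.15. Whether these dim probe sets detect other transcript ends or only background was not tested. Averaging all probe sets of a gene moved the siSocs3 difference of Pax6 from -2.09 to -0.88 and that of Meis1 from -1.19 to -0.74.

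**Figure D3:**
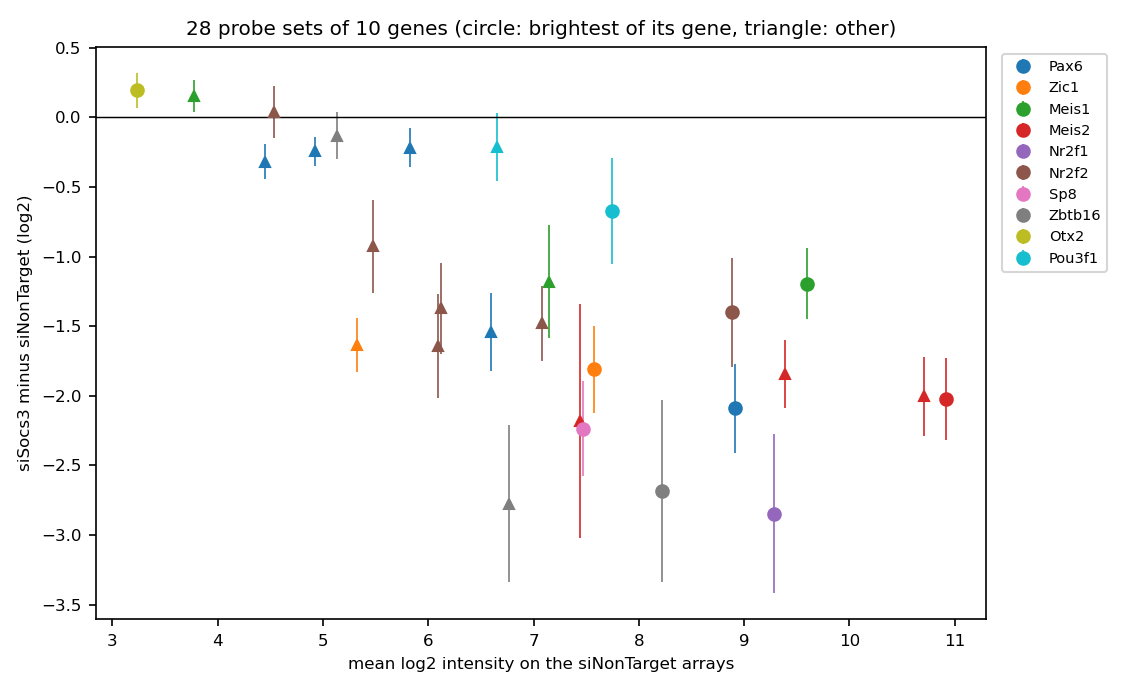
Difference between siSocs3 and siNonTarget (vertical axis, log2, bars for the standard error) against the mean log2 intensity on the control arrays for the 28 probe sets, coloured by gene, with circles for the brightest probe set of a gene. The 4 Meis2 probe sets lie between -1.84 and -2.18, while the dim Pax6 probe sets lie between -0.22 and -0.32.

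The genes with the nearest profiles were found by the mean absolute difference of centred log2 values over the 10 arrays. For Meis2 they were Hoxb3 (0.10), a HOX gene of the hindbrain, and Gas1 (0.12), a hedgehog co-receptor gene, where Meis2 itself deviated from its mean by 0.57 on average. For Pax6 they were Dclk1 (0.11) and the zinc finger gene Tshz1 (0.14), and for Zbtb16 Spsb4 (0.16) and Hoxb5 (0.21). For Nr2f1 they were Aldh1a7 (0.28) and Plch1 (0.34), for Nr2f2 Col4a5 (0.12) and Plekho1 (0.14), and for Meis1 Plat (0.10) and Gpsm1 (0.12). For Zic1 they were Slc35f1 (0.19) and Gpc6 (0.20), for Sp8 Nfib (0.23) and Crabp2 (0.29), and for Pou3f1 Soga3 (0.15) and Ddc (0.17). Oas1b (0.05) and Otop2 (0.06) were nearest to the flat profile of Otx2. Among the 10 themselves, Pax6 and Meis2 were the closest pair (0.20), whereas the member nearest to Otx2, Meis1, was at 0.41.

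Other transcription factors of the same tissue, and early neuron genes, were read as lists. In the list of hindbrain and spinal cord factors, 6 of 13 measured genes fell in siSocs3 and 0 rose (limma), with a median of -0.91: Hoxb3 (-1.84 ± 0.31), Irx3 (-1.71 ± 0.39), Hoxb2 (-1.53 ± 0.28), Irx5 (-1.47 ± 0.29), Hoxb1 (-1.43 ± 0.25) and Hoxa2 (-1.26 ± 0.26). With siNonTarget replicate 1 or siSocs3 replicate 1 left out the count was 0, with siSocs3 replicate 2 left out it was 3 and with siNonTarget replicate 2 left out it was 4, and the median was -0.36 without siNonTarget replicate 1. Among forebrain and midbrain factors 2 of 11 fell, Six6 (-0.96 ± 0.20) and Lhx2 (-0.83 ± 0.21), with a median of 0.05, and the count was 0 without siNonTarget replicate 1 or siSocs3 replicate 1, and 1 without siSocs3 replicate 2. Among neural progenitor factors 2 of 12 fell, Sox1 (-2.58 ± 0.58) and Sox11 (-1.37 ± 0.29), with a median of -0.24. That count was 0 without siNonTarget replicate 1 or either siSocs3 array. Of 11 proneural and neuron genes only Map2, a microtubule protein gene, fell (-1.15 ± 0.17), and it was not called without siSocs3 replicate 1. Across all genes 9.26% were called in either direction and 5.66% lower, and the median was 0.03. The forebrain, progenitor and proneural lists had 1 or 2 called genes each, and nothing is read from those counts about a list. All 12 gene lists were chosen with earlier results of these data known, so their counts beside the shares of all genes are no test of a list.

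Paralogues and binding partners mostly did not pass. Of 24 measured relatives, 2 fell in siSocs3, a share near the 5.66% of all genes called lower and so no result about the list: Pbx3 (-1.30 ± 0.22) and Pknox2 (-1.24 ± 0.31), both TALE homeodomain genes like Meis1 and Meis2, and the count was 0 without siNonTarget replicate 1 or siSocs3 replicate 1, and 1 without siSocs3 replicate 2, while without siNonTarget replicate 2 there were 2 lower and 2 higher. The median of the list was -0.09. In the retinoic acid pathway 5 of 15 fell and 1 rose: the binding protein gene Crabp2 (-2.37 ± 0.38), the hydroxylase gene Cyp26b1 (-1.77 ± 0.24), the reductase gene Dhrs3 (-1.23 ± 0.24), the receptor gene Rarb (-1.17 ± 0.13) and Stra8 (-0.48 ± 0.11) fell, and the receptor gene Rxra rose (0.87 ± 0.12). Leaving out siSocs3 replicate 1, siNonTarget replicate 1 or siSocs3 replicate 2 gave counts of falls of 1, 2 or 3, and the count of rises was 0 when siSocs3 replicate 1 was left out. In siSox17, siFbxw7 and siRnf31 against siNonTarget, 0 genes of any of these lists were called.

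Markers of other states were measured on the same arrays, where 9.26% of all genes were called in siSocs3, 5.66% lower and 3.59% higher. These lists too were chosen with earlier results of these data known, so counts beside those shares are no test of a list. Of 13 naive pluripotency genes, 9 rose in siSocs3 and 0 fell. Their summed intensity was 21677 to 24550 on the siSocs3 arrays against 9422 to 10506 on the controls, 15795 to 17591 in siSox17, 11660 to 15342 in siFbxw7 and 9889 to 15237 in siRnf31. The count was 4 without siNonTarget replicate 1, 6 without siNonTarget replicate 2 or siSocs3 replicate 2, and 1 without siSocs3 replicate 1. The summed level of 12 fibroblast feeder markers was 4832 to 8770 on the controls and 5336 to 6593 in siSocs3, and 1 of the 12, Col1a2, fell. Such sums are weighted to their brightest genes, here Vim (mean log2 intensity 11.85 on the controls), and were not tested as measures of cell content. The other marker lists had few called genes, 1 to 3 each, and nothing is read from those counts about a list. In the lists for mesoderm, 2 of 11 rose (Eomes and Mixl1), for neural crest 2 of 11 fell (Ednrb and Twist1), for endoderm 1 of 12 fell (Foxa2), and for primed epiblast 2 of 11 rose (Utf1 and Dnmt3b) and 1 fell (Sall2). These 5 lists, fibroblasts included, had 0 called genes when either siNonTarget replicate 1 or siSocs3 replicate 1 was left out. The mesoderm, endoderm and fibroblast lists also had 0 when siSocs3 replicate 2 was left out, and with siNonTarget replicate 2 left out 2 fibroblast markers rose and 0 fell. The summed endoderm markers ranged from 5571 to 7694 in siFbxw7 and 4378 to 4585 on the controls. The smallest intensity on these arrays was 5.05, so a value for a marker does not by itself show that its transcript was present. The part of these cell states in the levels of the 10 genes was not tested.

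**Figure D4:**
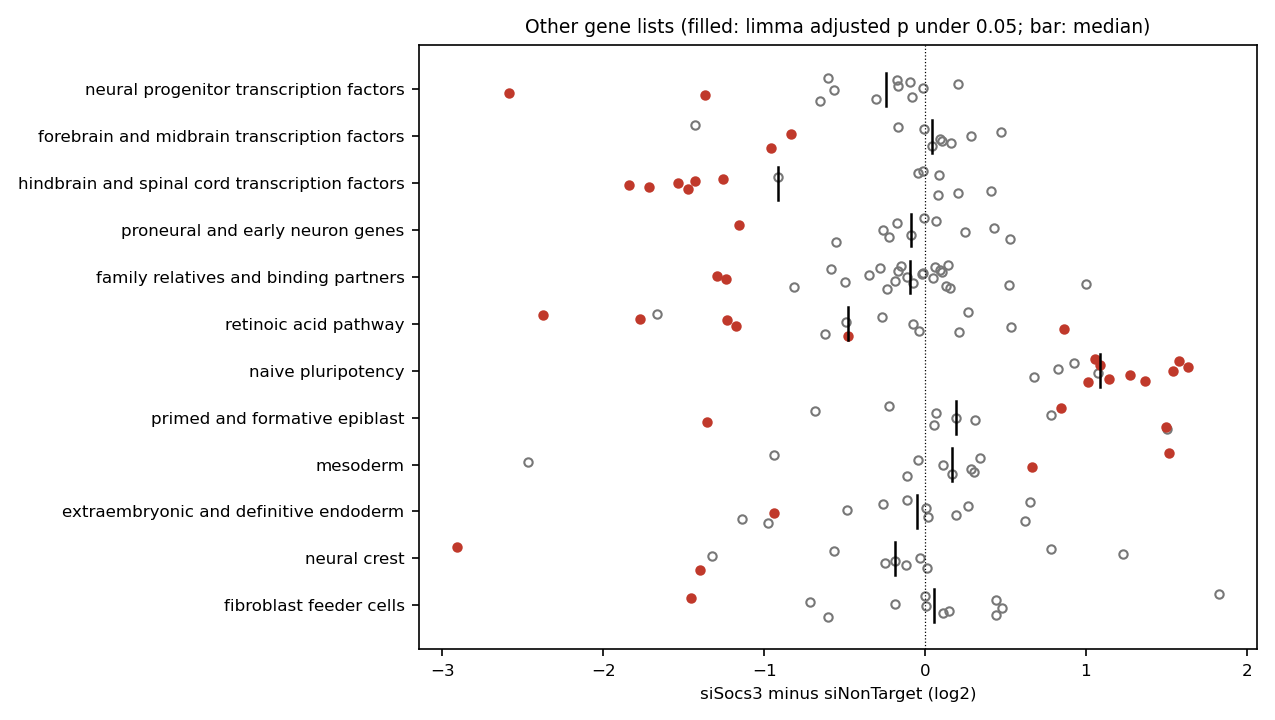
Difference between siSocs3 and siNonTarget (horizontal axis, log2) for each measured gene of 12 lists, filled where limma's adjusted p was under 0.05, with a bar at the list median. The hindbrain and spinal cord list has its median at -0.91 and the naive pluripotency list at 1.09, while the forebrain and midbrain list sits at 0.05.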

How the data were processed

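Transcript levels were measured on Affymetrix arrays from cDNA amplified from 5 ng of total RNA, per the labels' protocols. The authors deposited intensities, and the submitters' processing notes name RMA; its version is not given in the sources used here. They run from 5.05 to 31606.3, a linear scale, and log2 was taken. RMA makes array distributions alike, so a shift of most genes would not show. Array number (2 per group) limits the precision.

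Names came from the platform annotation: 34958 probe sets have 1 symbol, 932 several and 9211 none listed. The brightest probe set on average stood for each gene. A limma 3.58.1 model (R 4.3.3) with 1 mean per group was fitted to 18194 genes, with 5 residual and 3.98 prior degrees of freedom, two-sided tests and Benjamini-Hochberg adjustment per comparison. It was tested on simulated data. Figures used matplotlib 3.10.9. The 10 genes and 12 comparison lists were chosen with earlier results of these data known. From related lists the called genes with the largest differences in siSocs3 were named, up to 4 per list; Hoxb1, Hoxa2, Rxra and Stra8, and the called markers of other cell types, were named after their values were seen. For each of the 10, the 2 nearest other genes were named, skipping Gm, Rik and clone names. RefSeq sequences came from GRCm38.p6. Alternatives were another normalization, filter, prior, probe set rule, sample set, a replicate block and each array left out.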

Additional observations from a re-analysis of the deposited data

How the results depend on the processing

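In siSocs3 against siNonTarget, 7 of the 10 genes were called among 1684 genes. With each array left out in turn, the counts ran from 0 to 8 among the 10 and from 63 to 2074 over all genes, and without both arrays of high actin difference, chosen after seeing the data, 858 genes and 5 of the 10 were called. In siSox17 against siNonTarget the 1 gene called overall became 0 with the replicate block, the trended and robust prior, or every probe set tested alone. It became 3 with the mean of all probe sets, 254 with only the 2 groups (1 of the 10, Nr2f1) and 16 without both arrays of high actin difference. Leaving out single arrays gave 0 to 234 genes there, and 0 to 1 of the 10. In siSox17 against siRnf31 it gave 0 to 2 genes.

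The replicate numbers are not known to pair samples: deviations of same-numbered arrays correlated between -0.26 and 0.42 over pairs of groups. With the replicate block, 1517 genes and 6 of the 10 were called in siSocs3, and the block changed no call of the 10 in another comparison. A crossed replicate block fitted to only the 2 groups, which changes both choices together and was chosen after seeing the data, was tried in the comparisons whose groups correlated below -0.1. It gave 1312 genes and 6 of the 10 in siSox17 against siNonTarget, where the 2 groups without a block gave 254 and 1, and 1 gene and 0 of the 10 in siFbxw7 against siRnf31.

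Some differences that were not called changed sign without single arrays, and their ranges were as follows. In siSox17, Pou3f1 ran from -0.74 to 0.40, Sp8 from -0.42 to 0.66, Zic1 from -0.60 to 0.00043 and Otx2 from -0.077 to 0.014. In siFbxw7, Sp8 ran from -0.52 to 0.57, Pou3f1 from -0.29 to 0.60, Zic1 from -0.37 to 0.19 and Zbtb16 from -1.94 to 0.15. In siRnf31, Sp8 ran from -1.004 to 0.079, Meis1 from -0.74 to 0.057, Nr2f1 from -0.94 to 0.33 and Nr2f2 from -0.65 to 0.28. Without both arrays of high actin difference, Pou3f1 was 0.28 in siSox17 and Sp8 was 0.079 in siRnf31. With the mean of all probe sets, Pou3f1 was -0.000322 in siFbxw7. The cause of these changes was not tested. Otx2 has no value without the dimmest 30% of genes, which left it out.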
